A study of Mus musculus with 44 samples.

Results

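The enteric nervous system is the network of neurons and glia that lies in ganglia within the gut wall and drives motility, secretion and local blood flow. It was followed here through 32 genes chosen by name from what is known of these cells, with earlier results of these data known, out of 29720 genes in the deposited tables. Its motor neurons fall into excitatory neurons, which use acetylcholine and the tachykinin substance P, and inhibitory neurons, which use nitric oxide and vasoactive intestinal peptide (VIP). The glia that surround them express S100b, Sox10 and Gfap. Growth factors of the GDNF family act on these neurons through the receptor tyrosine kinase Ret and its coreceptors, and this pathway is needed to build and maintain the ganglia.

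By role, 5 of the genes mark neurons in general (Elavl3, Elavl4, Uchl1, Tubb3, Stmn2), 4 serve vesicle release and secretion (Snap25, Syt1, Scg2, Scg3) and 3 encode intermediate filaments of axons (Nefl, Nefm, Prph). The GDNF family receptors were represented by 3 genes (Ret, Gfra1, Gfra2), transmitter synthesis by 2 (Nos1, Chat) and neuropeptides by 6 (Vip, Tac1, Gal, Penk, Npy, Cartpt). Calcium binding proteins and a nicotinic receptor subunit made 3 (Calb2, Vsnl1, Chrna3), adhesion and neurite growth 3 (Ncam1, L1cam, Nrn1) and glia 3 (S100b, Sox10, Gfap). Several of these genes are also used by other cells of the gut, among them peptides and secretory proteins of enteroendocrine cells.

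Poly-A selected RNA of whole intestine from C57BL/6 mice was sequenced in 44 libraries, which cover 2 mouse models of inflammatory bowel disease. In the T cell transfer model, Rag1 null mice, which make no mature lymphocytes, were injected with 400000 naive T cells and developed colitis over 8 to 12 weeks (inflamed). Their non-inflamed controls were injected with 200000 bulk T cells. Inflamed mice of the TNFΔARE model carried Tnf ΔARE/+, an allele without the AU-rich element that destabilises Tnf mRNA, and non-inflamed littermates were Tnf +/+, all entering treatment at 16 weeks of age. Mice of each kind received vehicle or 3 mg/kg of ATI-450, an inhibitor of MK2, a kinase that acts below p38 and stabilises mRNAs of inflammatory mediators. They were dosed again 16 h later and were killed 90 min after the second dose. The vehicle groups held 5 non-inflamed and 6 inflamed transfer libraries and 5 non-inflamed and 5 inflamed TNFΔARE libraries. The inhibitor groups held 6 non-inflamed and 6 inflamed transfer libraries and 5 non-inflamed and 6 inflamed TNFΔARE libraries. The labels do not say that each library is a separate mouse, so p-values measure the spread between libraries, which may in part be technical. Non-inflamed transfer mice also lacked Rag1 and carried transferred T cells, so both arms of that model share an altered immune system.

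The extraction protocol names distal colon and ileum, while each sample is labelled only as intestine. Per library, colonocyte markers averaged 6.93 to 9.5 log2 CPM (library-scaled counts per megacount of library) in the transfer groups other than inflamed vehicle. TNFΔARE mice had lower values, from 0.672 to 5.01. In the inflamed vehicle transfer group the median was 7.29 and the highest value 8.08, with replicate 3 the lowest at 1.62. That inflamed vehicle library held transcripts of small intestinal enterocytes in place of colonic ones, and 5 inflamed transfer libraries (vehicle replicates 1 and 5, inhibitor replicates 3, 5 and 6) held transcripts of pancreatic acinar cells. Library totals ran from 5.95 to 22.3 megacounts in the transfer model and from 5.8 to 13.1 megacounts in the TNFΔARE model. The labels number 4 batches, spread unevenly over the groups, and batch was a term of the fits reported, other than those named as without it or within 1 batch. Non-inflamed vehicle replicate 4 was the highest of its transfer group for 28 of the 32 genes, and non-inflamed vehicle replicate 2 was the highest of its TNFΔARE group for 28. Inhibitor-treated non-inflamed transfer replicate 5 was the lowest of its group for 25.

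Promoter sequences are shown for 4 genes that stand for the secretory and transmitter roles and whose values are described below: Scg2, which encodes the granule protein secretogranin II, Vip, Tac1, the precursor of substance P, and Nos1, the neuronal nitric oxide synthase. They come from RefSeq on GRCm38.p6, cover 250 bases before to 50 bases after the start site and are written 5′ to 3′ on the strand of the gene. Capitals mark the cyclic AMP response element TGACGTCA or its core CGTCA, the left and right parts of the site of the neuronal repressor REST (CAGCACC and GGACAGC) and TATAAA, each searched on both strands.
Scg2, chr1:79439977-79440276, minus strand: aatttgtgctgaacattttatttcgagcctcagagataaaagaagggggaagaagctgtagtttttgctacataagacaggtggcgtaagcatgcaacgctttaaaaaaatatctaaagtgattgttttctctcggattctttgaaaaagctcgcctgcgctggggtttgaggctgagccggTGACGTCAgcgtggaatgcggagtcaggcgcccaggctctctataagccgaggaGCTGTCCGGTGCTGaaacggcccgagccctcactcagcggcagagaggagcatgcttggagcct
Vip, chr10:5638968-5639267, plus strand: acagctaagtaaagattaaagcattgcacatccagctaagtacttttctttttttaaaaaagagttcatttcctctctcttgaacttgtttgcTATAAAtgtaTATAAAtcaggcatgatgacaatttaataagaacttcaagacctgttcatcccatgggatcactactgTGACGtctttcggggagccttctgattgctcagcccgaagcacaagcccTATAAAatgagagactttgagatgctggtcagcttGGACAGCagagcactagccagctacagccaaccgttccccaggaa
Tac1, chr6:7554811-7555110, plus strand: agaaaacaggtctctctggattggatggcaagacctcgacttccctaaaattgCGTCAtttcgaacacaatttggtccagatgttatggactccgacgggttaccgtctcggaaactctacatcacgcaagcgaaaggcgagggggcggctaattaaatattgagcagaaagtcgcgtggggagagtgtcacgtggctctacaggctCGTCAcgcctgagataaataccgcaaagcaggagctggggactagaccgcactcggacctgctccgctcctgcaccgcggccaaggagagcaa
Nos1, chr5:117866589-117866888, plus strand: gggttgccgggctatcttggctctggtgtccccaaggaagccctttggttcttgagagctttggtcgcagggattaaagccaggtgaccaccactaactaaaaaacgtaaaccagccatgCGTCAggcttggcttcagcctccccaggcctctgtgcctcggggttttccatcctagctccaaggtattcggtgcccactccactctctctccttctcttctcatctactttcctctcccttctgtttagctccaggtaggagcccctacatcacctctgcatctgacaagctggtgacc

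In Scg2 the full cyclic AMP element began 68 bases before the start site, and the left and right REST parts lay side by side on the other strand at positions -7 and -14. Vip held the core on the other strand at -79, TATAAA at -157, -147 and -30, and the right REST part at 5. Tac1 held the core at -197 and -43, and Nos1 at -130. The Nos1 start used lies inside the annotated gene, which spans chr5:117781032-117958840. RefSeq gave 27 promoters for 21 of the 32 genes, some of them alternative starts of 1 gene that overlap. The core CGTCA was present in 11 of these 27 (40.7%), from 9 genes (Cartpt, Chat, Elavl4, Gal, Nos1, Scg2, Scg3, Tac1, Vip), and in 20.8% of 32851 promoters of the same length. The full element, which contains the core on both strands, was present in 2 of 27 (7.41%; Cartpt and Scg2) against 1.79%. The left REST part was present in 2 (7.41%; Scg2 and Tubb3) against 7.14%, and the right part in 4 (14.8%; Cartpt, Scg2, Tubb3, Vip) against 6.56%. TATAAA was present in 3 (11.1%) against 13.6%, and ACAANG, the core that SOX proteins bind, in 11 (40.7%) against 41.2%. These are matches of letters, and binding at these sites was not measured.

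Levels are CPM on library sizes scaled within each model. Per kilobase of exon, the highest mean levels in non-inflamed vehicle transfer libraries were those of Uchl1 (10.5 CPM per kb), Vip (10.4), Tac1 (10.2), Calb2 (9.15), Penk (9.07), Scg2 (8.92) and L1cam (8.91), which lie within the spread between libraries of each other. Their order rested on replicate 4: without it L1cam (9.29) was first, followed by Tac1 (6.80) and Uchl1 (6.37). In non-inflamed vehicle TNFΔARE libraries Scg2 (9.67), Uchl1 (7.36), Vip (7.12), L1cam (5.39), Prph (4.43) and Tac1 (3.29) were the highest, and without replicate 2 Scg2 (7.76) was again first and Vip (6.75) came before Uchl1 (5.61). Chat, the enzyme that makes acetylcholine, was near the bottom in both at 0.119 and 0.128 CPM per kb. The calcium sensor gene Vsnl1 was at 0 in 29 of the 44 libraries, Gal, which encodes galanin, in 21 and Scg3, which encodes secretogranin III, in 17. Low counts limit what can be said of these 3 genes.

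**Figure D1:**
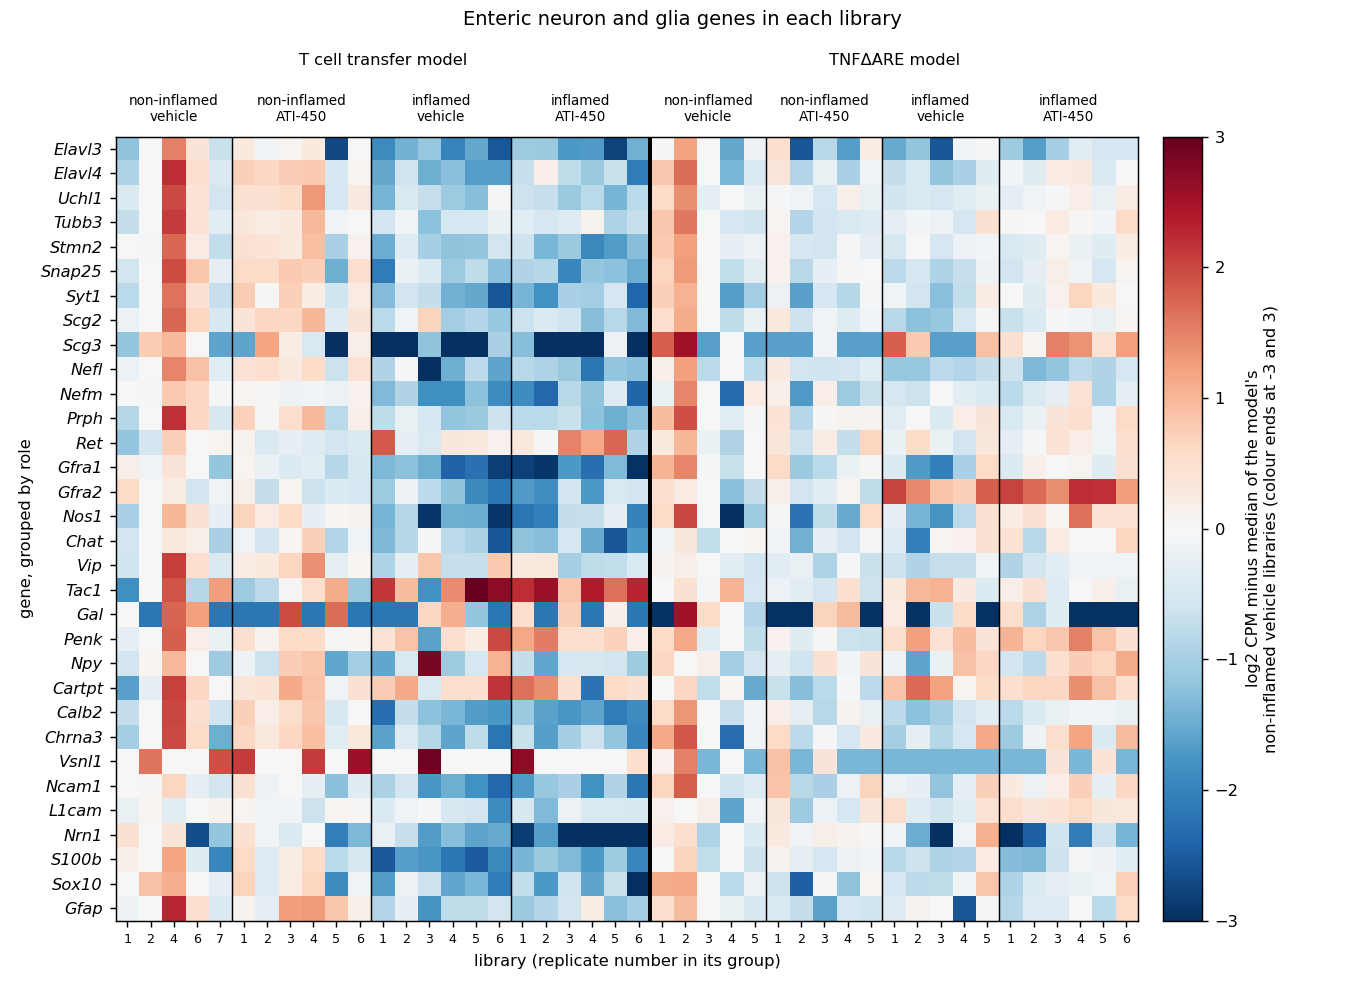
Level of each of the 32 genes in each of the 44 libraries, as log2 CPM minus the median of the non-inflamed vehicle libraries of the same model, with colour ending at -3 and 3, genes in rows by role and libraries in columns by group and replicate. Non-inflamed vehicle replicate 4 of the transfer model and replicate 2 of the TNFΔARE model stand out as columns in which 28 genes were the highest of their group.

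The first question was whether inflammation goes with a different level of these genes in the transfer model. In vehicle-treated mice 9 of the 30 genes tested were lower in inflamed than in non-inflamed libraries and 0 were higher (edgeR quasi-likelihood test, Benjamini-Hochberg adjusted over 15317 genes, threshold 0.05). Npy and Vsnl1 fell below the count filter. Of all genes tested, 6.28% were called lower and 7.9% higher, so the share of the neuronal and glial genes called lower (30.0%) lay above the background. The fitted log2 fold change was below 0 for 25 of the 30, with a median of -1.06 against 0.05 over all genes tested. An unadjusted p under 0.05 was reached by 19. In bulk tissue, fewer cells of a type and less RNA per cell cannot be told apart.

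The genes that fell came from 7 of the roles. Nos1 was at 6.2, 12.3, 24.6, 16.9 and 10.1 CPM in the non-inflamed libraries and ran from 1.5 to 6.73 CPM (median 4.31) in the 6 inflamed ones. The ranges overlapped only at non-inflamed replicate 1 and the highest inflamed library, and the log2 fold change was -1.95 ± 0.44 (SE, adjusted p = 0.00672). Gfra1, the coreceptor through which GDNF signals to Ret, was at 11.1, 9.06, 12.7, 9.77 and 4.32 CPM and then at 1.27 to 4.1 CPM (median 2.72), with no overlap between groups. Its log2 fold change was -1.66 ± 0.35 (adjusted p = 0.00512). Ret itself did not pass: its log2 fold change was 0.33 ± 0.35 (adjusted p = 0.534), from 5.75 to 21.5 CPM in non-inflamed and 9.42 to 47.4 CPM in inflamed libraries, the highest of which was the only library of batch 3 in that group.

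Among structural genes, Nefm, the medium neurofilament subunit, was at 2.75, 2.69, 4.79, 4.27 and 2.62 CPM in non-inflamed and 0.636 to 1.41 CPM (median 0.853) in inflamed libraries. The groups did not overlap, and its log2 fold change was -1.98 ± 0.33 (adjusted p = 0.00215). The light subunit Nefl changed by -1.42 ± 0.44 (adjusted p = 0.0377), from a mean of 6.28 ± 3.71 CPM (SD, n = 5) to 1.99 ± 1.28 CPM (SD, n = 6). The annotated spans of Nefl and Nefm overlap on opposite strands of chromosome 14, and the strand setting of the counting is not given in the sources used here. Calb2, the calcium binding protein calretinin, was at 6.26, 10.3, 42.1, 14.3 and 6.73 CPM and then at 2.06 to 6.24 CPM, just apart, with a log2 fold change of -1.58 ± 0.41 (adjusted p = 0.0147). The adhesion molecule gene Ncam1 changed by -1.09 ± 0.33 (adjusted p = 0.0336), with inflamed libraries at 1.79 to 6.39 CPM and non-inflamed ones at 6.53 to 15.2 CPM.

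Of the pan-neuronal genes, the RNA binding protein genes Elavl3 and Elavl4, which encode antigens HuC and HuD, fell. Elavl4 was at 1.92, 3.74, 17.7, 5.35 and 2.72 CPM in non-inflamed and 1.1 to 2.44 CPM (median 1.24) in inflamed libraries, where the groups overlapped in part, with a log2 fold change of -1.45 ± 0.47 (adjusted p = 0.0455). Elavl3 changed by -1.86 ± 0.48 (adjusted p = 0.0129). Uchl1, Stmn2 and Tubb3 had log2 fold changes of -0.96, -0.93 and -0.80 and did not pass. Of the vesicle genes 0 of 4 passed: the synaptic fusion genes Syt1 and Snap25 were just outside the threshold at -1.41 ± 0.48 (adjusted p = 0.0533) and -1.25 ± 0.42 (adjusted p = 0.0539).

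Of the glial genes 1 of 3 passed. S100b, a calcium binding protein of glia, was at 2.87, 2.58, 6.06, 1.97 and 0.566 CPM in non-inflamed and 0.342 to 0.732 CPM (median 0.523) in inflamed libraries, so only non-inflamed replicate 7 lay within the inflamed range. Its log2 fold change was -1.57 ± 0.41 (adjusted p = 0.0148). Gfap, the glial filament gene, had -1.28 ± 0.51 (adjusted p = 0.0952) and Sox10, the transcription factor of the glial lineage, -1.03 ± 0.56 (adjusted p = 0.215).

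Of the neuropeptide genes 0 of the 5 tested passed. Vip was at 14.4, 21.8, 92.8, 30.8 and 16.2 CPM in non-inflamed and 11.5 to 38.9 CPM (median 15.7) in inflamed libraries, almost wholly overlapping, with a log2 fold change of -0.14 ± 0.45 (adjusted p = 0.853). Tac1 was at 6, 21.9, 80.9, 12 and 52.6 CPM and then at 6.11 to 253 CPM (median 77.6), with 1.59 ± 0.82 (adjusted p = 0.192). The lowest inflamed Tac1 value was that of replicate 3, the library with small intestinal transcripts. Chat, at most 0.799 CPM in any library of the vehicle groups, had -0.78 ± 0.57 (adjusted p = 0.354).

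**Figure D2:**
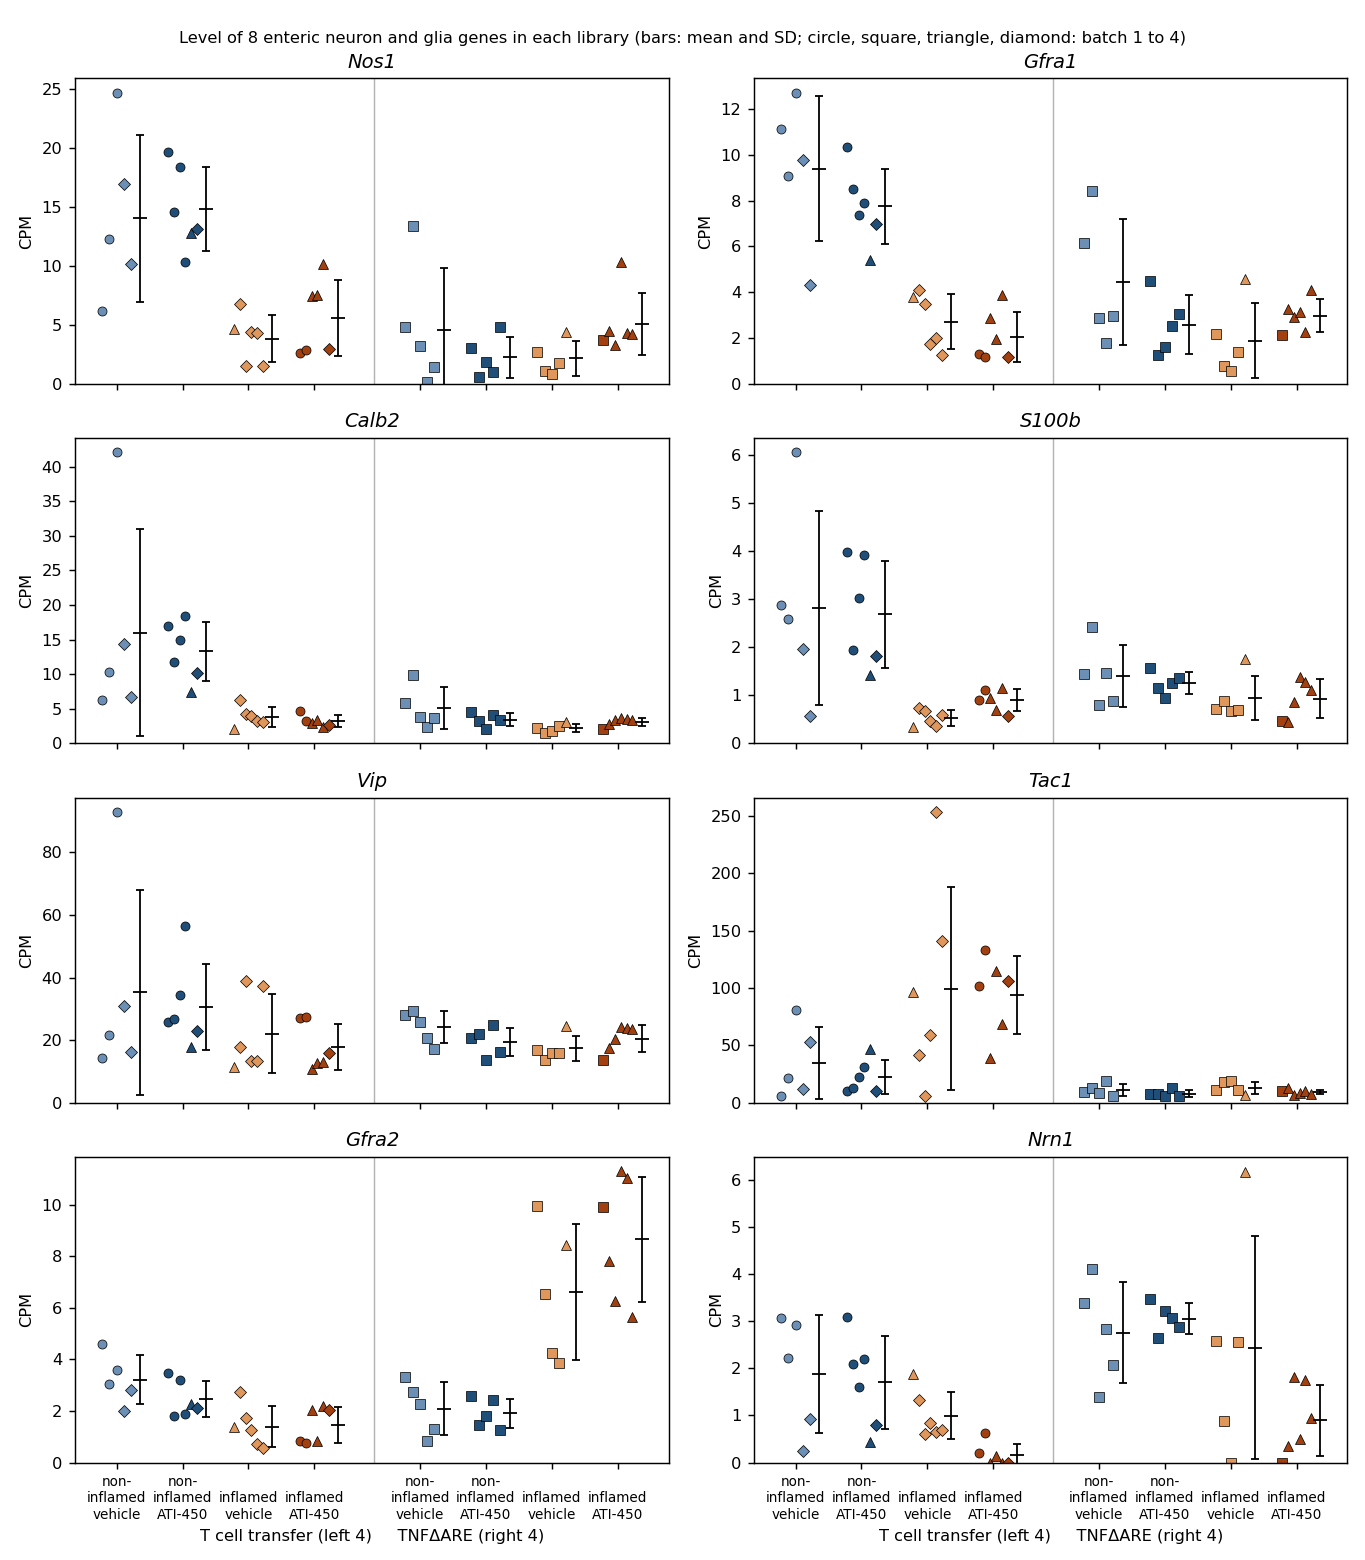
Level of 8 genes in each library, in CPM, by group, with 1 point per library (the shape gives the batch) and bars for the mean and SD of a group, drawn from 0 upward. Nos1 and Gfra1 lie lower in the inflamed transfer groups, Gfra2 lies higher in the inflamed TNFΔARE groups, and Nrn1 lies between 0 and 0.621 CPM in inhibitor-treated inflamed transfer libraries.

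The batch layout and single libraries bear on the transfer result. Batch 4, the only batch with both vehicle groups, held 2 non-inflamed and 5 inflamed libraries. Within it 0 of 16221 genes tested passed, the 9 genes among them, whose log2 fold changes were -1.11 to -1.92. Without non-inflamed replicate 6 only Nefm passed (adjusted p = 0.021), and the share of all genes past the threshold is not given for that fit. Leaving out single libraries ended the call of Elavl4 in 7 of 11 cases, of Ncam1 in 6 and of Nefl in 4. Those of Elavl3, Gfra1, Nos1, Calb2 and S100b ended in 1 each, and Nefm stayed past the threshold in all 11. Without the 6 libraries that hold small intestinal or pancreatic transcripts 2 of 30 genes passed, Nefm and Gfra1, both lower. Of all 15524 genes tested without those 6 libraries, 6.78% passed (772 higher and 281 lower).

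Of 45 further genes of these cells 38 were tested, of which 9 were lower and 1 higher, with a median log2 fold change of -0.72. The lower ones with the smallest p were Map1b (-1.34 ± 0.29) and Map2 (-1.57 ± 0.40), which encode microtubule proteins of neurites, and Slc18a2 (-1.90 ± 0.44), the vesicular monoamine transporter. The higher gene was Apod (0.99 ± 0.31), which encodes an apolipoprotein and was named after its value was seen.

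Markers of the muscle layer moved with these genes. Of 12 smooth muscle genes 8 were lower and 0 higher, with a median log2 fold change of -0.89, among them Smtn (-0.996), Myh11 (-1.48) and Lmod1 (-0.95), which encode contractile proteins. Of 5 genes of interstitial cells of Cajal, the pacemaker cells of the gut wall, 3 were lower (Etv1 at -1.25, Cacna1h at -1.33 and Thbs4 at -1.99). All 5 leukocyte genes tested were higher, with Itgam at 2.66, Lyz2 at 3.24 and Ptprc at 2.11. Smooth muscle genes averaged 6.86 to 8.44 log2 CPM in non-inflamed and 5.92 to 6.95 in inflamed vehicle libraries. The part of these shifts in the neuronal result was not tested.

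The mean log2 CPM over the 32 genes, called the score from here on, was 2.21 ± 0.75 (SD, n = 5) in non-inflamed and 1.22 ± 0.21 (SD, n = 6) in inflamed vehicle transfer libraries, a difference of -0.99. Set against the smooth muscle score of the same library, the score was -5.57 ± 0.80 in non-inflamed and -5.13 ± 0.28 in inflamed libraries. On that scale the mean was not lower in the inflamed libraries, and the 2 groups overlapped. The medians were close, at -5.26 in non-inflamed and -5.27 in inflamed libraries, and non-inflamed replicate 1 was the lowest at -6.82. Scores were not adjusted for batch, unlike the fitted fold changes. Averaged by role on the plain log2 CPM scale, 8 of the 9 roles had the lower mean in inflamed libraries, and the neuropeptides did not. The 3 glial genes averaged 1.499 ± 0.87 (SD, n = 5) in non-inflamed and -0.08 ± 0.36 (SD, n = 6) in inflamed libraries, and the lowest non-inflamed library (0.41) lay below the highest inflamed one (0.62). The 6 neuropeptides averaged 1.63 ± 1.02 and 1.81 ± 0.45. These role means are given as a description, and the roles named were chosen after their values were seen.

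**Figure D3:**
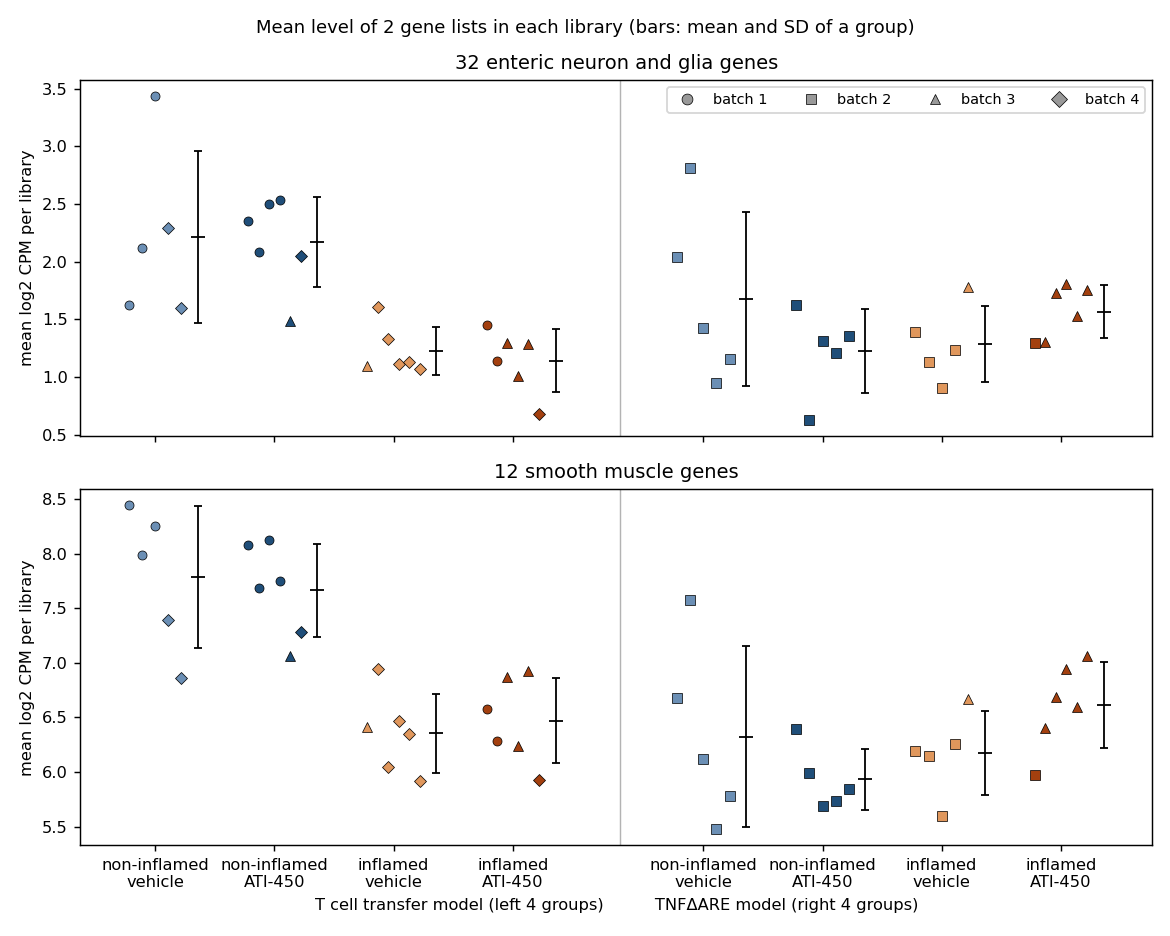
Mean log2 CPM over the 32 neuronal and glial genes in each library by group, above the same mean over 12 smooth muscle genes, with 1 point per library (the shape gives the batch) and bars for the mean and SD of a group. Inflamed transfer libraries lie low on both scales, and the TNFΔARE groups overlap on both.

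The same comparison in mice given ATI-450 called more of the genes. Inflamed libraries were lower for 16 of 30 and higher for 1, where 11.0% of all genes tested were lower and 14.0% higher. The median log2 fold change was -1.21 against 0.02 over all genes. Of the 9 genes lower with vehicle (that is 77.8% of them), 7 were lower here (Calb2, Gfra1, Ncam1, Nefl, Nefm, Nos1, S100b), which is 43.8% of the 16. No such overlap over all genes is given, so it does not show agreement particular to these genes. The 2 comparisons set different libraries against each other. Both came from the same fit of all 4 groups, so they shared its batch terms and estimate of spread and are not independent. The test of the difference between them called 0 of the 30 genes and 0.0% of all genes by edgeR (by DESeq2 1 of the 30 and 0.0588% of all), with 1 of the 30 at an unadjusted p under 0.05.

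Gfra1 was at 5.39 to 10.3 CPM in the inhibitor-treated non-inflamed libraries and 1.14 to 3.86 CPM in the inflamed ones, with no overlap. Its log2 fold change was -2.19 ± 0.36 (adjusted p = 0.000279). Nefm (-1.88 ± 0.34), Calb2 (-1.72 ± 0.40) and Nos1 (-1.88 ± 0.45) also lay apart between the groups, Nos1 at 10.4 to 19.7 and 2.58 to 10.2 CPM. Ncam1 (-1.19), Nefl (-1.37) and Stmn2 (-1.19), which regulates microtubules in growing axons, passed as well. Of the vesicle genes 3 of 4 passed, with Syt1 at -1.69 and Snap25 at -1.24. Of the glial genes 2 of 3 passed, S100b at -1.34 and Gfap at -1.47, while Sox10 was at -1.41 ± 0.58 (adjusted p = 0.0802).

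Both transmitter enzymes passed, since Chat was at -1.69 ± 0.59 (adjusted p = 0.0381). Levels of Chat were low, at 0.284 to 1.12 CPM and 0 to 0.407 CPM. Chrna3, Scg2 and Uchl1, which were named after their values were seen, made up the rest of the lower genes. Nrn1, which encodes the neurite growth protein neuritin, had the largest change at -2.90 ± 0.52 (adjusted p = 0.000307) and is described with the inhibitor comparisons. Leaving out single libraries ended the call of Scg2 in 9 of 12 cases and of Chat, Chrna3 and Uchl1 in 8 each. That of Snap25 ended in 7, of Gfap in 6, of Nefl in 4 and of Syt1 in 3. The call of S100b ended in 2 and those of Ncam1 and Stmn2 in 1 each. Calb2, Gfra1, Nefm, Nos1 and Nrn1 stayed past the threshold in all 12.

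Tac1 was the gene that rose. It ran from 9.98 to 47.2 CPM (median 17.6) in the non-inflamed and from 39.2 to 133 CPM (median 104) in the inflamed inhibitor-treated libraries. The groups overlapped slightly, and the log2 fold change was 2.10 ± 0.70 (adjusted p = 0.0347). This call was lost without any 1 of 8 of the 12 libraries (adjusted p from 0.0512 to 0.105), without the count filter (0.0541) and within batch 3 (0.755). Vip (-0.41 ± 0.40, adjusted p = 0.451), Ret (0.51 ± 0.34, adjusted p = 0.264) and Elavl4 (-0.99 ± 0.45, adjusted p = 0.107) did not pass.

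Of the 38 further neuron and glia genes 17 were lower and 1 higher, with Cdh19 (-2.22) and Foxd3 (-2.11), both expressed along the glial and Schwann cell lineage, and Stx1a (1.49), a vesicle fusion gene, at the smallest p. Smooth muscle genes were lower for 10 of 12, among them Kcnmb1, Acta2 and Smtn, and 5 of 5 leukocyte genes were higher. Set against smooth muscle, the score was -5.50 ± 0.22 in non-inflamed and -5.33 ± 0.22 in inflamed libraries. The inflamed mean was not lower on that scale, and the groups overlapped. Within batch 1, with 4 non-inflamed and 2 inflamed libraries, 9 of the neuronal and glial genes passed, where 22.3% of all genes did. Within batch 3, with 1 non-inflamed library against 3, 0 passed, and Snap25 (0.06) and Ncam1 (0.09) changed sign. Without inflamed inhibitor replicate 1 or 2, which are the batch 1 libraries of that group, 6 passed. The share of all genes past the threshold is not given for those fits.

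**Figure D4:**
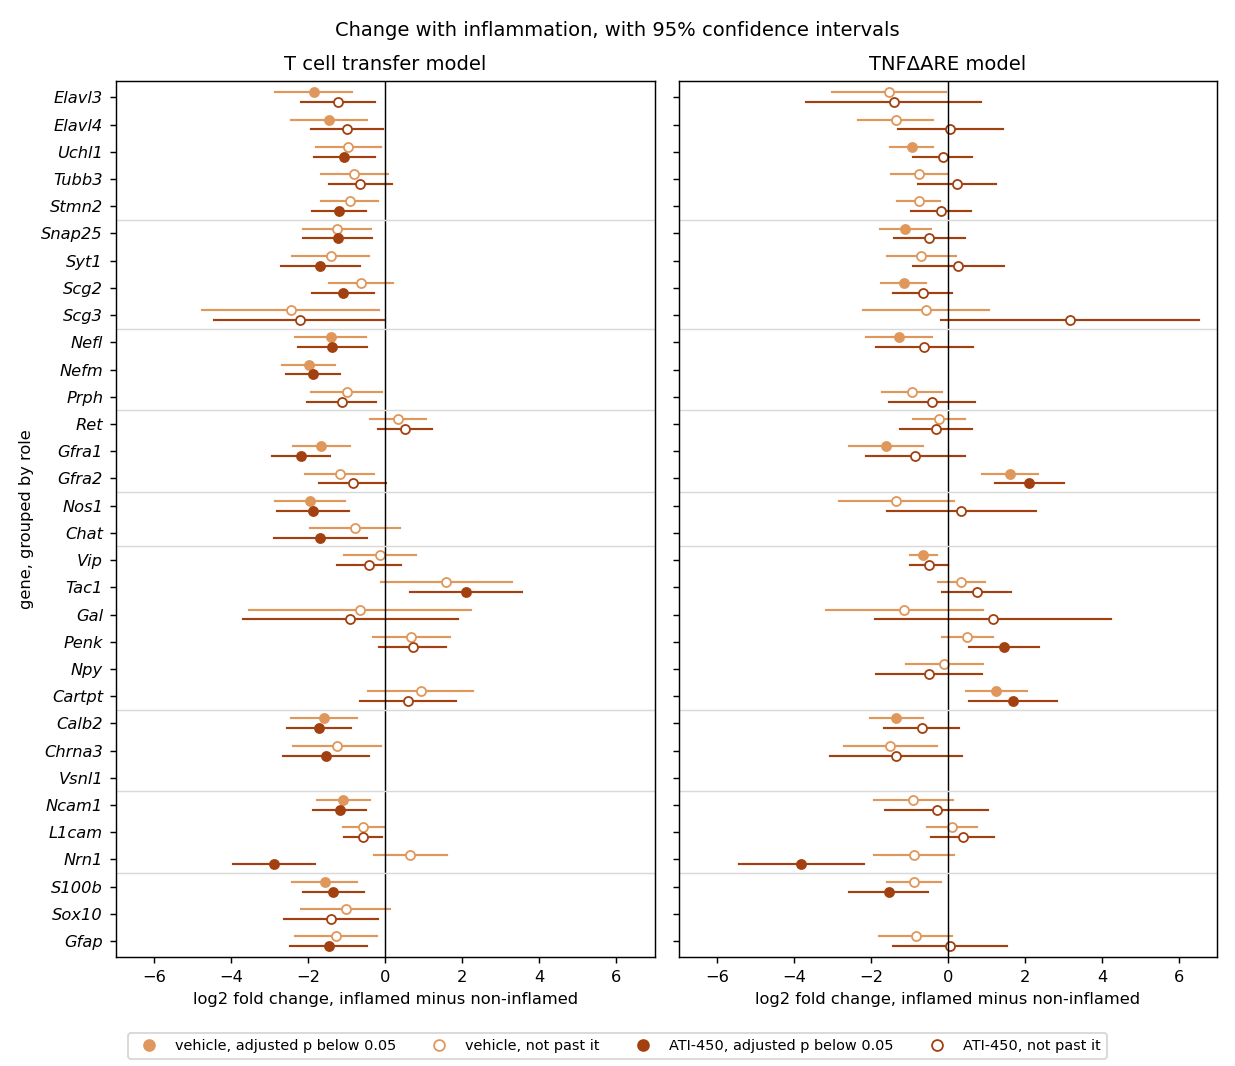
Fitted log2 fold change of inflamed against non-inflamed libraries for each gene, with 95% confidence intervals, in both models under vehicle and under inhibitor, with filled points for an adjusted p below 0.05. Most genes lie below 0 in the transfer model, while Gfra2 lies below 0 there and above 0 in the TNFΔARE model.

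Inflammation in the TNFΔARE model went with a mixed pattern. In vehicle-treated mice 7 of 28 genes tested were lower in inflamed libraries and 2 were higher, where 7.27% of the 14370 genes tested were lower and 8.66% higher. Chat, Nefm, Sox10 and Vsnl1 fell below the count filter. The log2 fold change was below 0 for 23 of 28, with a median of -0.89 against -0.02 over all genes, and 15 had an unadjusted p under 0.05. Calb2, Gfra1 and Nefl were lower in both models with vehicle, that is 33.3% of the 9 in the transfer model and 42.9% of the 7 here. The matching overlap over all genes is not given, so this one does not show agreement particular to these genes.

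Scg2 was at 28.7, 43.5, 20.1, 11.7 and 17.6 CPM in non-inflamed and 11.2, 8.38, 9.05, 14.1 and 19.3 CPM in inflamed libraries. The groups overlapped, and the log2 fold change was -1.15 ± 0.28 (adjusted p = 0.00656). Vip was at 28, 29.3, 25.8, 20.8 and 17.2 CPM and then at 16.8, 13.8, 16, 15.8 and 24.4 CPM, with a smaller change of -0.64 ± 0.17 (adjusted p = 0.0146). The highest inflamed value of both genes was that of replicate 5, the only inflamed vehicle library of batch 3. Calb2 changed by -1.34 ± 0.33 (adjusted p = 0.00679), Snap25 by -1.11 ± 0.32 (adjusted p = 0.0205) and Uchl1, a neuronal ubiquitin hydrolase, by -0.94 ± 0.27 (adjusted p = 0.02). Gfra1 was at 6.14, 8.43, 2.87, 1.78 and 2.95 CPM and then at 2.15, 0.762, 0.559, 1.4 and 4.56 CPM, with -1.61 ± 0.46 (adjusted p = 0.0194), and Nefl changed by -1.26 ± 0.41 (adjusted p = 0.0417). Leaving out single libraries ended the call of Nefl in 6 of 10 cases and of Gfra1 in 3. Those of Snap25 and Uchl1 ended in 2 each, while Scg2, Vip and Calb2 stayed past the threshold in all 10.

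Gfra2, the coreceptor for neurturin, rose. It was at 3.32, 2.74, 2.28, 0.836 and 1.31 CPM in non-inflamed and 9.97, 6.53, 4.25, 3.85 and 8.44 CPM in inflamed libraries. The groups did not overlap, and the log2 fold change was 1.61 ± 0.35 (adjusted p = 0.00299). Cartpt, the precursor of the CART peptides of some enteric neurons, was at 1.3, 2.11, 0.693, 1.36 and 0.327 CPM and then at 2.51, 4.68, 3.24, 1.4 and 2.01 CPM, and rose by 1.26 ± 0.38 (adjusted p = 0.0287). Its call was lost without any 1 of 5 of the 10 libraries (adjusted p up to 0.119). The third receptor gene, Ret, was at -0.23 ± 0.32 (adjusted p = 0.731), so of the 3 receptor genes 1 rose, 1 fell and 1 did not pass.

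Nos1, which fell in the transfer model, was at 4.84, 13.4, 3.17, 0.104 and 1.42 CPM in non-inflamed TNFΔARE libraries and 2.65, 1.09, 0.782, 1.75 and 4.42 CPM in inflamed ones. The non-inflamed libraries alone spanned the whole inflamed range, and the log2 fold change was -1.34 ± 0.71 (adjusted p = 0.238). Elavl4 (-1.36 ± 0.47, adjusted p = 0.0556), S100b (-0.89 ± 0.34, adjusted p = 0.0822) and Gfap (-0.83 ± 0.45, adjusted p = 0.255) did not pass either. Tac1 was at 0.34 ± 0.29 (adjusted p = 0.517).

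Of 33 further neuron and glia genes tested 4 were lower and 1 was higher. The higher one was Calcb (2.24 ± 0.38), which encodes a calcitonin gene-related peptide of sensory neurons. Sst, the somatostatin gene shared by neurons and enteroendocrine cells, was at -1.01 ± 0.23 and Cdh19 at -1.36 ± 0.36. Smooth muscle genes were called for 0 of 12 by edgeR, with a median of -0.46 and 1 at an unadjusted p under 0.05. Of the leukocyte genes 4 of 6 were higher, and their score was 3.55 ± 0.75 log2 CPM in non-inflamed and 5.74 ± 0.38 in inflamed libraries. Of the enterocyte genes 6 of 8 were lower, with scores of 10.7 ± 0.65 and 9.60 ± 0.35. The part of these shifts in the neuronal result was not tested. Within batch 2, with 5 non-inflamed and 4 inflamed libraries, 5 of the neuronal and glial genes passed (Scg2, Gfra1, Vip and Calb2 lower, Gfra2 higher), where 10.9% of all genes did. Without non-inflamed replicate 2, which had the highest values and also the highest smooth muscle score of its group (7.58), 5 passed, where 14.3% of all genes did. Without inflamed replicate 1 also 5 passed, and the share of all genes is not given for that fit. The score was 1.68 ± 0.76 (SD, n = 5) in non-inflamed and 1.29 ± 0.33 (SD, n = 5) in inflamed libraries, which overlapped. Set against smooth muscle it was -4.65 ± 0.09 and -4.88 ± 0.14 (-4.71 ± 0.39 and -5.05 ± 0.21 with inhibitor), so on that scale the inflamed mean was the lower one in this model. The groups overlapped on that scale with vehicle and with inhibitor, and the scores were not adjusted for batch.

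With ATI-450, inflamed TNFΔARE libraries were lower than non-inflamed ones for 2 of 28 genes and higher for 3, where 4.56% of all genes were lower and 7.91% higher. Gfra2 rose again, from 2.57, 1.48, 1.8, 2.43 and 1.27 CPM to a range of 5.67 to 11.3 CPM (median 8.85), with no overlap and a log2 fold change of 2.11 ± 0.43 (adjusted p = 0.00253). Cartpt (1.68 ± 0.55, adjusted p = 0.0497) and Penk, the enkephalin precursor (1.45 ± 0.44, adjusted p = 0.0336), also rose. S100b (-1.54 ± 0.49, adjusted p = 0.0448) and Nrn1 (-3.81 ± 0.78, adjusted p = 0.00251) fell. The S100b levels overlapped, at 0.947 to 1.57 CPM in non-inflamed and 0.443 to 1.38 CPM in inflamed libraries. Their means, without adjustment for batch, were 1.26 and 0.922 CPM, a smaller fall than the fitted one. Over the alternatives run, the S100b log2 fold change ranged from -1.63 to -0.54. The size of the Nrn1 change leaned on the batch term, since without it the value was -1.80 (adjusted p = 0.0283), and within batch 2 it was -8.03 and did not pass (adjusted p = 0.0661).

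The layout of this comparison is thin, since 5 of the 6 inflamed libraries were of batch 3 and all 5 non-inflamed ones of batch 2. Without inflamed replicate 1, the only inflamed library of batch 2, Gfra2 was at 1.69 and did not pass (adjusted p = 0.214). In that fit 1 gene passed, and the share of all genes past the threshold is not given. Leaving out single libraries ended the call of Cartpt in 10 of 11 cases, of S100b in 7 and of Penk in 4. Within batch 2 the fit set that 1 library against 5, with the spread taken from the other libraries of the batch, and only Gfra2 passed (2.32, adjusted p = 0.0226). Of the 7 genes called lower with vehicle 0 were called here, and the matching overlap over all genes is not given. Even so, the test of the difference between the comparisons called 0 of 28 by edgeR and by DESeq2. Of all genes it called 0.0% by edgeR and 0.0209% by DESeq2. Elavl4 (0.06), Nos1 (0.35), Gfap (0.05), Vip (-0.49), Snap25 (-0.48) and Ret (-0.31) did not pass. Calcb (2.38) and Sst (-1.07) passed again among the further neuron and glia genes. Of the leukocyte genes 3 of 6 were higher (scores of 3.51 ± 0.74 and 5.54 ± 0.56) and of the enterocyte genes 6 of 8 lower (10.6 ± 0.52 and 9.46 ± 0.24). The smooth muscle score was 5.93 ± 0.28 in non-inflamed and 6.61 ± 0.39 in inflamed libraries, with 0 of 12 genes called by edgeR and 0 at an unadjusted p under 0.05.

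The difference between the models was tested for each gene in a joint fit of the 44 libraries. Gfra2 alone of the 31 genes tested passed, where 5.27% of 15565 genes did, 3.37% higher and 1.91% lower in the transfer model. Its effect of inflammation with vehicle was lower in the transfer than in the TNFΔARE model by 2.80 ± 0.56 on the log2 scale (adjusted p = 0.00228). In transfer libraries Gfra2 was at 4.6, 3.05, 3.59, 2.01 and 2.83 CPM in non-inflamed and 0.579 to 2.73 CPM (median 1.31) in inflamed ones, with a log2 fold change of -1.18 ± 0.43 that did not pass on its own (adjusted p = 0.0708). Gfra2 passed in each of the 28 alternatives run for this test, with values from -2.34 to -3.16. The models differ in intestinal region, genotype and batch as well as in the kind of inflammation, and these cannot be told apart.

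Levels in non-inflamed vehicle mice were compared between the models in the same joint fit. Of 31 genes tested, 1 was higher in the TNFΔARE libraries (Nrn1), where 12.8% of all genes passed, 7.34% higher and 5.42% lower. Nrn1 was at 3.07, 2.21, 2.93, 0.246 and 0.925 CPM in the transfer and 3.39, 4.11, 1.39, 2.82 and 2.07 CPM in the TNFΔARE libraries, which overlapped. These levels were scaled within each model, while the joint fit scaled all libraries together. The fitted log2 fold change of 4.31 ± 1.02 (adjusted p = 0.00352) leaned on the batch term, since batch 3 alone links the models, and without that term it was 0.74 (adjusted p = 0.355).

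The inhibitor itself called almost none of the genes. In inflamed transfer mice 1 of 30 passed, Nrn1, which was also the only one of the 15317 genes to pass by edgeR (0.00653%; 0.0326% by DESeq2). Nrn1 was at 0.603 to 1.88 CPM (median 0.762) with vehicle and at 0.199, 0.621, 0, 0.14, 0 and 0 CPM with ATI-450. These levels rest on 8 to 27 counts per library with vehicle and 0 to 10 with the inhibitor, and the highest inhibitor library reached the lowest vehicle one. The log2 fold change was -3.76 ± 0.58 (adjusted p = 0.0136).

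This call depended on the batches and on single libraries. All but 1 of the vehicle libraries were of batch 4, and 2, 3 and 1 of the inhibitor libraries were of batches 1, 3 and 4. In batch 4 the 1 inhibitor library was at 0 and the 5 vehicle libraries at 0.603 to 1.32 CPM. In batch 3 the 3 inhibitor libraries were at 0, 0.14 and 0 CPM and the 1 vehicle library at 1.88 CPM. Nrn1 did not pass without the batch term (-2.29, adjusted p = 0.408), without vehicle replicate 1 (adjusted p = 0.26), without inhibitor replicate 1 (adjusted p = 0.139) or without inhibitor replicate 6 (adjusted p = 0.0929). It did not pass without the libraries of small intestinal or pancreatic transcripts either (adjusted p = 0.881). Of 22 alternatives, single libraries included, it passed in 14, with adjusted p from 1.55e-05 to 1 and a log2 fold change below 0 in each.

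In inflamed TNFΔARE mice the inhibitor comparison called 0 of 28 genes by edgeR and by DESeq2, where edgeR called 0.0% and DESeq2 0.00696% of all genes. Nrn1 had the smallest p of these genes here as well. It was at 2.58, 0.871, 0, 2.56 and 6.17 CPM with vehicle and 0 to 1.8 CPM (median 0.724) with ATI-450, with overlap between the groups, and its log2 fold change was -2.78 ± 0.67 (unadjusted p = 0.000507, adjusted p = 0.81). It was the only one of the 28 with an unadjusted p under 0.05. S100b (-0.79) and Elavl4 (0.60) came next.

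Whether the effect of inflammation on Nrn1 differed with the inhibitor was tested as an interaction. In the transfer model it was -3.55 ± 0.68 (adjusted p = 0.296 by edgeR), and DESeq2 called it at -3.68 (adjusted p = 0.00174). Nrn1 was the 1 gene of these that DESeq2 called, and Gfra1 (-0.54) and Chat (-0.90) came next by edgeR. For the TNFΔARE model it was -2.92 ± 0.80 (adjusted p = 1), 0 of 28 genes passed and 2 had an unadjusted p under 0.05. Of all genes tested there, 0.0% passed by edgeR. The others with the smallest p there were Scg3 (3.75) and Elavl4 (1.42).

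In non-inflamed mice of either model 0 of the genes were called between inhibitor and vehicle by edgeR and by DESeq2. Of all genes edgeR called 0.0% in both models, and DESeq2 called 0.0522% in transfer and 0.111% in TNFΔARE mice. In the transfer model 29 of 30 log2 fold changes were below 0, with a median of -0.23 and 0 at an unadjusted p under 0.05. Those with the smallest p were Nefm (-0.41), Ret (-0.46) and Gfra1 (-0.38). Of the 28 genes in the TNFΔARE model, 25 were below 0, with a median of -0.59. An unadjusted p under 0.05 was reached by 6 genes, of which Scg3 (-3.81), Tubb3 (-0.97) and Stmn2 (-0.69) had the smallest p.

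The signs of genes that share libraries are not separate measurements. Smooth muscle genes were below 0 for 12 of 12 in both of these comparisons, with medians of -0.21 and -0.56. In the TNFΔARE model the vehicle libraries included replicate 2, the highest for 28 of the 32 genes and for smooth muscle. Markers of mesentery and fat differed there too, with a score of 4.35 ± 1.38 with vehicle and 0.47 ± 1.60 with inhibitor, and 4 of 4 genes at an unadjusted p under 0.05 while 0 passed. The part of this library, of the muscle layer and of fat in these signs was not tested.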

How the data were processed

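The values used are expected counts, which the authors deposited in 1 table per model: Salmon estimates per gene, as whole numbers without scaling. Per the submitters' processing notes, Salmon 0.14.1, DESeq2 and the builds mm10 and GRCm38 were used; neither the annotation release nor the strand setting of the counting is given. The kit marks strand, per the labels' protocols. The normalized tables were not used. Of 29720 gene identifiers 29395 matched the reference annotation.

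Tests ran in R 4.3.3 with edgeR 4.0.16: filterByExpr, TMM scaling, a robust quasi-likelihood fit with group and batch as terms over all 4 groups of a model (or all 44 libraries, with batch nested in model for the difference in effect and shared by label for the difference in level), two-sided tests, and p-values adjusted by Benjamini-Hochberg over every gene kept, with a threshold of 0.05. Fold changes are adjusted for batch. A score averages log2 CPM (prior count 2) over a list and is not adjusted for batch. The scripts were tested on simulated data. Tables used Python 3.11.15 and pandas 2.3.3.

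The genes and the marker lists were chosen with earlier results of these data known. The naming rule gave Elavl4, Vip, Nos1, Chat, S100b, Sox10, Gfap, Snap25 and Ret always, up to 12 genes past the threshold by p in each comparison, the 3 with the smallest p where none passed, and up to 3 genes of each further list. Alternatives were DESeq2 1.42.0, RLE scaling, a fit without the count filter, 1 without the batch term, 1 with a replicate block, single batches and each library left out. Leaving out libraries with transcripts of other tissues, or with the highest score, was added after seeing the data. Replicate numbers were not taken to pair the libraries. Reads were not collapsed by molecular identifiers, so PCR copies may count more than 1 time.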

Additional observations from a re-analysis of the deposited data

Results flagged for a closer look

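In 256 checks of 1 gene in 1 group, 34 had a library whose gap to the next passed Dixon's limit; chance flags about 1 in 20 groups, and genes of 1 library are not independent. Of these, 9 came from replicate 4 of the non-inflamed vehicle transfer group, each the highest of its group: Elavl4 at 17.7 CPM, Uchl1 at 44.3, Tubb3 at 29.3, Stmn2 at 42.2, Prph at 42.1, Vip at 92.8, Penk at 35.3, Calb2 at 42.1 and Gfap at 13.1 CPM. Without the highest-scoring library of each model, 6 genes in place of 9 passed in the vehicle comparison of the transfer model. Of all genes tested 15.0% passed in that fit, against 14.2% with the library kept.

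In the inhibitor-treated non-inflamed transfer group, replicate 5 was apart and low for Elavl3 (0.142 CPM), Snap25 (2.69 CPM) and Nefl (2.69 CPM). Replicate 4 of that group was high for Tubb3 (13.3 CPM) and low for L1cam (43.3 CPM). Of the inflamed vehicle transfer libraries, replicate 1 was high for Ret (47.4 CPM) and replicate 2 for Elavl4 (2.44 CPM). Replicate 3, which held small intestinal transcripts, was high for Npy (2.56 CPM) and Vsnl1 (0.829 CPM). Of the inhibitor-treated inflamed transfer libraries, replicate 1 was high for Vsnl1 (0.696 CPM), replicate 2 was high for Nrn1 (0.621 CPM) and low for L1cam (27.2 CPM), and replicate 4 was high for Gfap (3.07 CPM).

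In the TNFΔARE model, replicate 5 of the inflamed vehicle group, its only library of batch 3, was high for Vip (24.4 CPM), Chrna3 (4.16 CPM) and S100b (1.74 CPM). Replicate 2 of the non-inflamed vehicle group was high for Gal (8.74 CPM) and Vsnl1 (1.26 CPM), and replicate 4 was low for L1cam (14.7 CPM). With the inhibitor, inflamed replicate 4 was high for Nos1 (10.3 CPM) and Cartpt (3.77 CPM) and inflamed replicate 6 for Sox10 (1.57 CPM). Of the non-inflamed ones, replicate 3 was high for Scg3 (0.379 CPM) and low for Gfap (0.189 CPM), and replicate 1 was high for Nefl (2.07 CPM).

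Gfra2 was flagged because the effect of inflammation differed between the models in a test of the difference itself (-2.80 on the log2 scale, transfer minus TNFΔARE, edgeR adjusted p = 0.00228).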

How the results depend on the processing

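Counts below are of the neuronal and glial genes past the threshold, some with the share of all genes past it. In the vehicle comparison of the transfer model (9, 14.2% of all), no batch term gave 20 (22.2%), a replicate block 14 (40.0%), batch 4 alone 0 (0.0%) and leaving out the libraries with small intestinal or pancreatic transcripts 2 (6.78%). The 14 of 30 under the block thus lay near its background. With inhibitor (17, 25.0%), batch 1 alone gave 9 (22.3%), batch 3 alone 0 (0.0352%) and leaving out those libraries 11 (21.8%). Within batch 3, Snap25 (0.059, adjusted p = 0.983) and Ncam1 (0.087, adjusted p = 0.971) reversed. For the inhibitor in inflamed transfer mice (1), no batch term, the replicate block, batch 3 alone, batch 4 alone and leaving out those libraries each gave 0, and for the interaction (0) DESeq2 gave 1. Under the replicate block the interaction reversed for Gfra1 (0.38) and Chat (1.78). In the TNFΔARE model with vehicle (9, 15.9%), batch 2 alone (10.9%) and leaving out the highest-scoring library (14.3%) each gave 5. With inhibitor (5, 12.5%), no count filter gave 3 (7.54%), the replicate block 2 (6.46%) and batch 2 alone 1 (3.35%). For the difference between the models (1, 5.27%), no batch term gave 2 (9.19%). For levels between the models (1 of 31, 12.8%), DESeq2 gave 2 (16.3%), no batch term 9 (33.4%, so below the background), leaving out the small intestinal library 2 (14.1%), leaving out all 6 doubted transfer libraries 2 (10.8%) and leaving out the highest-scoring ones 5 (15.2%).

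Leaving out 1 library at a time gave 1 to 13 genes in the transfer vehicle comparison, 6 to 19 with inhibitor, 0 to 1 for the inhibitor in inflamed mice, 5 to 13 in the TNFΔARE vehicle comparison, 1 to 4 with inhibitor and 1 to 4 for levels between models. The lowest counts came without non-inflamed vehicle replicate 6 (1), without inflamed inhibitor replicate 1 or 2 (6), and without TNFΔARE inflamed inhibitor replicate 1 (1). The share of all genes past the threshold is not given beside these counts, so they do not show a change particular to these genes. The difference in score between vehicle groups ran from -1.14 to -0.69 in the transfer and from -0.57 to -0.11 in the TNFΔARE model. Same-numbered libraries correlated at over 0.1 in every pair of no comparison (at most 3 of 4 pairs), so the numbers were not taken to pair libraries. The causes of these changes were not tested. Counts at or near 0 limit Vsnl1, Gal, Scg3, Chat and Nrn1.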
